A study of Homo sapiens with 16 samples.

Results

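What AsiDNA adds to belinostat was read from the open-chromatin peaks of U87 cells, an established human glioblastoma line. The peak list of cells given belinostat together with AsiDNA (labelled Asi_Bel, here the combination) was set against the list of cells given belinostat without AsiDNA (labelled Control_Bel). A combination peak counted as gained, and a belinostat peak as lost, when it shared not even 1 bp with a peak of the other list, on chromosomes 1 to 22 and X. These groups hold 8 of the 16 samples, 4 libraries each. The other 8 are 4 vehicle libraries (Control_DMSO) and 4 of AsiDNA without belinostat (Asi_DMSO), whose lists played no part in choosing the gained and lost peaks. Belinostat was given at 1 µM for 24 h. No AsiDNA dose is in the labels, and their protocols name MTU87 and LTAU87 cells where the sample fields say U87, so how the AsiDNA groups came to be exposed is not settled here. All 4 libraries of a group point to 1 peak list, so no value below has a spread between replicates, no p-value was computed, and nothing shown was tested as a difference between treatments. Intervals are Wilson 95% intervals, which cover counting error only.

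AsiDNA is a short double-stranded DNA molecule that looks like a broken chromosome end. It draws DNA-dependent protein kinase and PARP away from real breaks and sets off false damage signalling. Belinostat blocks the enzymes that take acetyl groups off histones and other proteins, and more acetylated histones go with looser chromatin. NicE-seq reads such chromatin in fixed nuclei: the enzyme Nt.CviPII nicks accessible DNA, DNA polymerase I fills in biotinylated nucleotides at the nicks, and the tagged fragments are captured on streptavidin and sequenced.

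The combination list was the shorter, with 134865 peaks against 138937. As to cell type, 10 of 12 glioblastoma and astroglial markers had a peak at the gene start in each list, 0 of 6 epithelial markers did, and CDKN2A, CDKN2B, MTAP and DMRTA1, in the 9p21 deletion known in U87, held no peak within 10 kb in either. Of the 6 markers of each further cell type, endothelial markers had 1 open start in each list, leukocyte markers 2 in the combination and 3 in belinostat alone, and neuron markers 5 and 6. Read depth per library is unknown, and a list can be longer with more reads as well as with more open chromatin.

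More peaks were lost than gained in the combination list. Gained peaks numbered 16880, which is 12.5% of the combination list, and lost peaks 21041, or 15.1% of the belinostat list, a ratio of gained over lost of 0.802 (interval 0.786 to 0.819). Gained minus lost peaks came to -4161, close to the difference in list length of -4072 peaks. This follows from counting, since shared peaks were nearly equal in number, at 117985 and 117896. With the longer list cut to the length of the shorter, keeping its lowest p-values, the ratio was 0.992. Lists of equal length must give a ratio near 1, so this value cannot show why the balance leaned to loss. Without belinostat the balance lay the other way, since AsiDNA over vehicle had 24339 gained and 15815 lost peaks, a ratio of 1.54 (1.51 to 1.57).

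Some changed peaks sat directly on promoters, and the DNA of 8 such promoters shows what kind of sequence they covered. A gene start was called gained when a combination peak and no belinostat peak reached within 1000 bp of it, and lost in the reverse case. By this rule 254 of 19821 protein-coding genes had a gained start (1.28%) and 386 a lost start (1.95%). A peak at the start in both lists was found at 13021 genes. For 4009 genes no start was listed, and either gene end, which may not be the start, was used instead. They supplied 75 of the gained and 100 of the lost starts. The 15812 genes with listed starts supplied 179 and 286. In 233 of the 254 and 362 of the 386, the strongest peak at the start was itself a gained or lost peak. The promoters printed here have such a peak over the 250 bases before the start and were chosen after the values were seen to cover well-known genes, from the 8 highest-ranked of each kind. They come from RefSeq on GRCh38, run 5′ to 3′ on the strand of the gene, and end at the base before the start. Capitals mark the bases inside the gained or lost peak. Gained promoters come first: KRTAP4-1, a hair keratin-associated protein, at chr17:41184912-41185161 on the minus strand, DNALI1, a light chain of the dynein that drives cilia, at chr1:37556690-37556939 on the plus strand, TTC7B, a scaffold of the phosphatidylinositol 4-kinase complex, at chr14:90816431-90816680 on the minus strand, and LTBR, the lymphotoxin beta receptor, at chr12:6383912-6384161 on the plus strand.
KRTAP4-1: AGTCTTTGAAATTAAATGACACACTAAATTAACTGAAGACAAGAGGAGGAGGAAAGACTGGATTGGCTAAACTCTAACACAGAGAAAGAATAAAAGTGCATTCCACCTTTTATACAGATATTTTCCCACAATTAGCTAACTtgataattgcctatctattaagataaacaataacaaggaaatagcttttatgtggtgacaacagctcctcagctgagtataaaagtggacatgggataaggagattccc
DNALI1: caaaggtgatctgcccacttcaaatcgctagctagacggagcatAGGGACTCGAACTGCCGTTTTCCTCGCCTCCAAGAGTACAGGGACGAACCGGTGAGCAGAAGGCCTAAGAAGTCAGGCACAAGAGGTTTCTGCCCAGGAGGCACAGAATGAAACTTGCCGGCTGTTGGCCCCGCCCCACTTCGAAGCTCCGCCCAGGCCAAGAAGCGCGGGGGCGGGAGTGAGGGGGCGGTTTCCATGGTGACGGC
TTC7B: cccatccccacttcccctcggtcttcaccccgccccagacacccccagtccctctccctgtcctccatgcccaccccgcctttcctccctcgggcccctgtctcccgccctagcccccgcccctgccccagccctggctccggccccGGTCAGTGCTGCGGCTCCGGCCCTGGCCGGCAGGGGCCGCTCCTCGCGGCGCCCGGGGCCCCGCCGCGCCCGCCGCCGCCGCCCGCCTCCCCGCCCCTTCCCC
LTBR: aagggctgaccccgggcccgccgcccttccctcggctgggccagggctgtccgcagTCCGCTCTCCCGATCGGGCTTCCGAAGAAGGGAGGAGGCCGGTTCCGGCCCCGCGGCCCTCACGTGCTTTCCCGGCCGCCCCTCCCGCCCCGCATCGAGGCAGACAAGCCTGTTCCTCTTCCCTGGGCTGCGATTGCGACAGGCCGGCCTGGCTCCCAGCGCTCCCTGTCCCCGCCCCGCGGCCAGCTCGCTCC

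Lost promoters follow: IFI44, a gene switched on by interferon, at chr1:78649581-78649830 on the plus strand, PCDH15, a protocadherin, at chr10:54801232-54801481 on the minus strand, TNF, the inflammatory cytokine, at chr6:31575315-31575564 on the plus strand, and GBP1, a guanylate-binding protein also switched on by interferon, at chr1:89065209-89065458 on the minus strand. These show the part of each promoter that carried a peak with belinostat alone.
IFI44: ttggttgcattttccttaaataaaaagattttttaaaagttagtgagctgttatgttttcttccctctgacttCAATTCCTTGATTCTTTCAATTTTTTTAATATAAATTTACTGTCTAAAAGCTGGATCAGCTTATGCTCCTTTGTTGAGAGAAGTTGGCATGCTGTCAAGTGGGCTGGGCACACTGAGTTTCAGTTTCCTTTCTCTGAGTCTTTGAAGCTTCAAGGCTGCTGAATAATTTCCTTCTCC
PCDH15: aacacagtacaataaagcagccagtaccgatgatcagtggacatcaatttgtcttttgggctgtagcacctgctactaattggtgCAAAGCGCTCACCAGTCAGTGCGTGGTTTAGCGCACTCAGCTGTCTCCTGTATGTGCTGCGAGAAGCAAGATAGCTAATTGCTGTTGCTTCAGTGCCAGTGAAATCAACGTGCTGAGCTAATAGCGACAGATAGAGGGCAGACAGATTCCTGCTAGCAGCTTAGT
TNF: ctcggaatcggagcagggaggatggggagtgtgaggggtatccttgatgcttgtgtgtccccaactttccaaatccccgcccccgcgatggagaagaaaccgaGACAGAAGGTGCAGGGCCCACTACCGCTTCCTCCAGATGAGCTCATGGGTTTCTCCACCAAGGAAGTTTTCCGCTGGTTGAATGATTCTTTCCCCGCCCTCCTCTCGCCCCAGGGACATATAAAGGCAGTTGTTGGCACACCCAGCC
GBP1: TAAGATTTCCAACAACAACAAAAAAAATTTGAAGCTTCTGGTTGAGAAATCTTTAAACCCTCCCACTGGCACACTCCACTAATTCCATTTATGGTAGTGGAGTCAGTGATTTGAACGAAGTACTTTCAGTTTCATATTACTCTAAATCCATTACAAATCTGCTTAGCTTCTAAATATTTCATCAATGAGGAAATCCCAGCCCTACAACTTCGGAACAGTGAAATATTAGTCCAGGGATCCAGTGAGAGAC

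The 8 promoters were of different make. TTC7B and LTBR held 25 and 27 CpG dinucleotides and DNALI1 16, each with 4 or 5 copies of GGGCGG on either strand, the box bound by SP1. KRTAP4-1 and IFI44 held 0 CpG, and KRTAP4-1 carried 2 copies and IFI44 1 copy of TATAAA. TNF held 10 CpG, 2 copies of GGGCGG and 1 of TATAAA, GBP1 held 2 CpG, and PCDH15 held 7. Over all 93 gained promoters of this kind the median was 10 CpG per 250 bases, over 130 lost promoters 5, over 9858 promoters with a peak in both lists 22, and over all 15812 listed promoters 17. GGGCGG was in 51.6% of gained (interval 41.6 to 61.5), 35.4% of lost (27.7 to 43.9) and 56% of all promoters (55.2 to 56.7). TATAAA was in 7.53% of gained (3.69 to 14.7), 14.6% of lost (9.56 to 21.7) and 9.25% of all promoters (8.8 to 9.71). TGANTCA, the letters AP-1 reads, was in 10.8% of gained (5.95 to 18.7), 10% of lost (5.94 to 16.4) and 5.05% of all promoters (4.72 to 5.4). All motifs were searched on both strands, and a match is only a match of letters. Sites that Nt.CviPII can nick (CCA, CCG or CCT on either strand) had medians of 36 in gained, 33 in lost and 35 in all promoters.

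The values of these promoters in the lists without belinostat differed from gene to gene. Fold enrichment here is the authors' own value for each peak over its local background. It ranks a peak within its list, as a percentile from 0 for the weakest to 100, and is not scaled between lists. The KRTAP4-1 peak had a fold of 9 in the combination (percentile 71.1), 12.1 with AsiDNA alone and 12.3 with vehicle. So only the belinostat list lacked it. DNALI1 had 5.8 in the combination (44.6), 3.63 with AsiDNA and 3.53 with vehicle, and TTC7B had 5.39 (39.5), 4.36 and 4.33, the same pattern. LTBR had 4.93 in the combination (33.5) and 5.43 with AsiDNA, and no peak in the vehicle or belinostat lists. Among lost promoters, IFI44 had a fold of 8.11 with belinostat (67.4), 9.11 with AsiDNA and 6.97 with vehicle, so that it was missing from the combination alone. GBP1 did the same with 5.1 (38), 4.9 and 5.2. The TNF promoter had a peak of 5.33 with belinostat (41) and in no other list. PCDH15 had 5.33 (41) with belinostat and 5.2 with vehicle, and lacked a peak in both lists with AsiDNA.

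Over all starts, the lists that took no part in the rule were divided. Of 254 gained starts, 93 (36.6%) were open in both the AsiDNA and the vehicle list, 39 with AsiDNA only, 21 with vehicle only and 101 (39.8%) in neither. Of 386 lost starts, 106 (27.5%) were open in both, 43 with AsiDNA only, 39 with vehicle only and 198 (51.3%) in neither. The same shares among all open starts are not given here. Median percentiles were 12.5 for gained and 12.1 for lost start peaks, so most lay in the weakest part of their list.

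Ranked by the strongest peak near the start, the gained genes were led by ADM5, MYD88, ITGB7, ANGPTL5, HMGB4, EFNA5, KRTAP4-1, ADAMTS8, CD6 and CA14, and the lost genes by SORBS3, KIR2DL1, LOC124903761, IFI44, TCP11, PPEF1, GPRC5C, FAT2, FAM83B and SKAP2. Of these genes, ADAMTS8, CD6, SORBS3 and GPRC5C had no listed start and were called at either gene end. Most of the leading genes turned on the edge of the window. MYD88, the adaptor of Toll-like receptors, had a combination peak of fold 14.8 (percentile 93.7) that overlapped a belinostat peak ending outside the 1000 bp. With windows of 500 and 2000 bp only 2 and 1 of the 10 gained genes and 1 and 1 of the 10 lost genes kept their class. A ranking by starts whose peak was itself gained or lost was added after the values were seen. It put KRTAP4-1, LOC124901069, FES, DNALI1 and LOC105377864 first among gained, and IFI44, SKAP2, CCL8, AVPR1A and HBA2 first among lost starts. LOC124901069 and HBA2 were called at either gene end. FES, a tyrosine kinase of myeloid cells, had a fold of 5.81 in the combination (percentile 44.7) and 3.5 with vehicle. ZBED2, a zinc finger regulator, had 5.77 in the combination (43.9), 11.1 with AsiDNA and 9.49 with vehicle, and none with belinostat. CCL8, a chemokine that attracts monocytes, had 6.26 with belinostat (51.6) and no peak in the other lists. AVPR1A, a vasopressin receptor, had 6.03 with belinostat (49.2), 4.44 with AsiDNA and 7.8 with vehicle. Of these, KRTAP4-1, DNALI1, LOC105377864 and CCL8 kept their class at both other windows. FES, ZBED2, SKAP2, AVPR1A and HBA2 lost it at 500 bp, IFI44 at 2000 bp and LOC124901069 at both.

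Away from starts as well, gained and lost peaks were weak and narrow. By fold enrichment the median gained peak stood at percentile 14.1 of the combination list, against 56.1 for shared peaks, and it was 242 bp wide against 430.0 bp. The median lost peak stood at percentile 14.3 of the belinostat list against 57.5, and was close to gained peaks in width, where shared belinostat peaks measured 443 bp. In the weakest decile of each list 46.8% of combination peaks were gained and 56.2% of belinostat peaks were lost. The shares fell with strength, to 6% and 7.88% in the fifth decile. In the strongest decile 1 of 13487 combination peaks was gained, and 0 of 13894 belinostat peaks were lost, which allows a share of up to 0.0216% (3 counts of the total). At or above percentile 50 lay 362 gained and 458 lost peaks. Many had a neighbour: 19.6% of gained and 17.7% of lost peaks had a peak of the other list within 1000 bp.

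**Figure D1:**
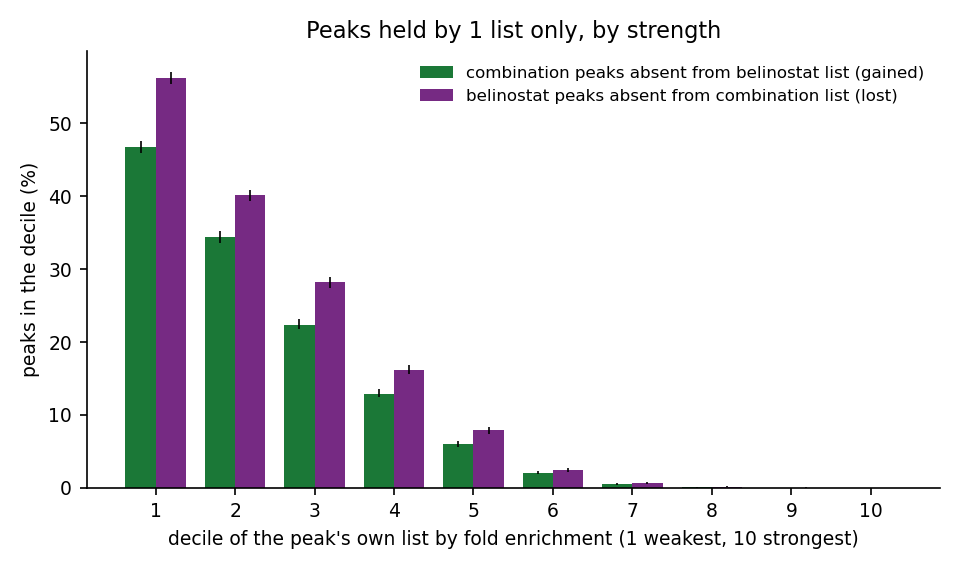
Share of peaks held by 1 list only (y axis, percent) in each decile of that list by fold enrichment (x axis, 1 weakest to 10 strongest), for gained peaks (green) and lost peaks (purple); bars show the share and lines its Wilson 95% interval. Both shares fall from 46.8% and 56.2% in the weakest decile to 6% and 7.88% in the fifth decile.

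Whether these peaks were open in cells without belinostat was not part of the rule. Of gained peaks, 29.9% (interval 29.3 to 30.6) overlapped a peak of both the AsiDNA and the vehicle list, 13.9% of the AsiDNA list only, 8.41% of the vehicle list only, and 47.7% of neither. For lost peaks the shares were 20.6% (20 to 21.1), 12.6%, 8.15% and 58.7%. Shared peaks were in both other lists in 81.2% of cases. A gained peak was thus found in the vehicle list more often than a lost peak was, 38.4% (37.6 to 39.1) against 28.7% (28.1 to 29.3). The difference was larger among strong peaks. At or above percentile 50 of their own list, 228 of 362 gained peaks (63%) were in both lists without belinostat and 66 (18.2%) in neither. Of the 458 lost peaks of that rank, 187 (40.8%) were in both and 155 (33.8%) in neither. Most gained peaks of that rank were thus places that only the belinostat list lacked. Their share in both lists, 63%, was still below the 81.2% of shared peaks of all ranks. The share among all combination peaks of that rank is not given here. This difference was not tested, since each group has 1 list.

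**Figure D2:**
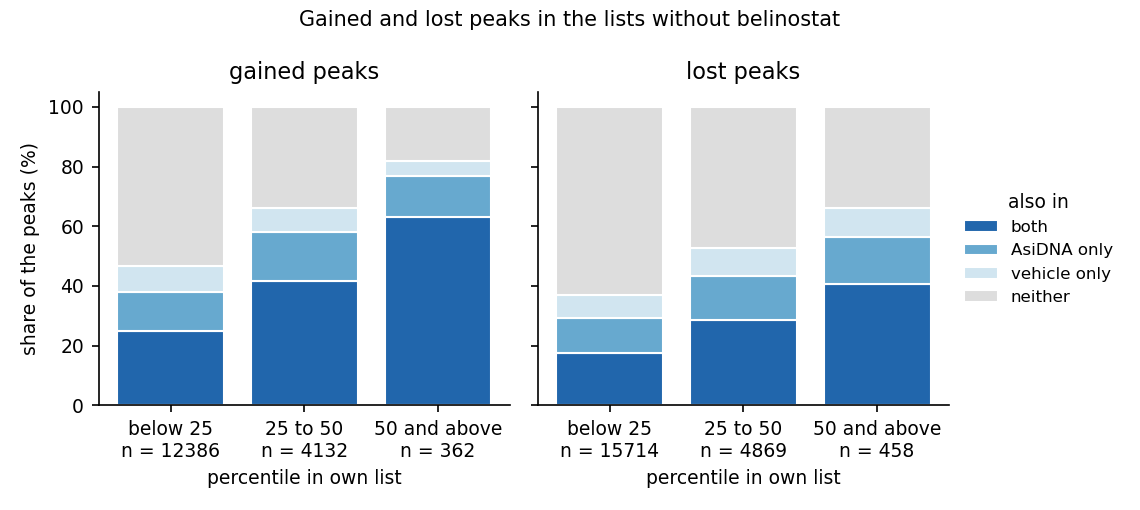
Share of gained peaks (left) and lost peaks (right) that overlap a peak in both lists without belinostat, in the AsiDNA list only, in the vehicle list only or in neither (y axis, percent, stacked), by percentile of fold enrichment in the peak's own list (x axis, with the number of peaks). The share in both rises from 25% to 63% for gained and from 17.5% to 40.8% for lost peaks.

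The 10 highest-ranked gained peaks show this at single places. The first, on chromosome 17 (26625422 to 26625781, between genes), had a fold of 17.1 in the combination (percentile 97.3), 18.2 with AsiDNA and 15.2 with vehicle. It was the only gained peak in the strongest decile. A peak inside FBN1, the fibrillin of elastic fibres, on chromosome 15 (48472853 to 48473152) had 10.6, 10.1 and 8.79, and one inside FSTL4, a secreted follistatin-like protein, on chromosome 5 (133664404 to 133664719) had 9.7, 8.88 and 9.67. A peak 59.3 kb from TNFSF4, a T cell co-stimulatory ligand, had 9.46, 11.9 and 11, and one inside COL5A2, a fibrillar collagen, had 9.46, 6.07 and 6.15. Peaks 51.1 kb from ACVR1 and 383 kb from PDGFC were also in both lists without belinostat. Gained peaks inside ATP9B, a P4-type ATPase (chromosome 18, 79200700 to 79200897, fold 12.2), and inside TICRR, a regulator of replication origins (chromosome 15, 89614231 to 89614502, fold 9.46), were in neither. The peak 54.7 kb from SOX11 was shared with vehicle alone. So 7 of the 10 were missing from the belinostat list alone.

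Of the 10 highest-ranked lost peaks, 4 were in the belinostat list alone. The first, on chromosome 3 (39707408 to 39707807), 101 kb from MYRIP, had a fold of 11.4 with belinostat (percentile 84.5) and 6.77 with AsiDNA, and no peak with vehicle. Peaks inside KLHL1 on chromosome 13 (69935086 to 69935438, fold 10.7), PARD3B, a cell polarity protein, on chromosome 2 (204900918 to 204901228, 10.2) and CHSY3, a chondroitin synthase, on chromosome 5 (130135503 to 130135818, 9.5) had no peak in the other lists, nor had a peak 181 kb from SPEF2. A peak inside ROCK1, a kinase of the actomyosin system, on chromosome 18 (20971931 to 20972464) had 9.5 with belinostat, 9.11 with AsiDNA and 8.04 with vehicle. Peaks 21.7 kb from IDO1, which breaks down tryptophan, and 136 kb from RBM43 were likewise missing from the combination alone.

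The balance of gains and losses shifted toward loss where genes are dense. Counting protein-coding genes in the 1 Mb around each summit, the ratio of gained over lost peaks was 1.01 (interval 0.964 to 1.05) with 0 to 2 genes, 0.835 (0.8 to 0.872) with 3 to 5, 0.776 (0.744 to 0.808) with 6 to 9, 0.701 (0.67 to 0.733) with 10 to 19 and 0.646 (0.606 to 0.688) with 20 to 70. The share of peaks gained fell from 17.6% in the sparsest class to 9.16% in the densest, and the share lost from 17.6% to 13.5%. With lists of equal length the ratio in the sparsest over that in the densest class was 1.53, against 1.56 with the full lists. Without belinostat there was no such fall: AsiDNA over vehicle had 1.34 (1.29 to 1.4) in the sparsest class and between 1.56 and 1.65 in the others. The median distance to the nearest gene start was 46.5 kb for gained, 38.4 kb for lost and 31.3 kb for shared peaks. Between genes, inside genes and at gene starts the ratio hardly differed, at 0.813 (0.791 to 0.836), 0.791 (0.767 to 0.816) and 0.781 (0.7 to 0.872). The share of peaks that changed did differ: 4.07% of combination peaks at gene starts were gained and 5.14% of belinostat peaks there were lost, against 14.4% and 17.2% between genes.

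**Figure D3:**
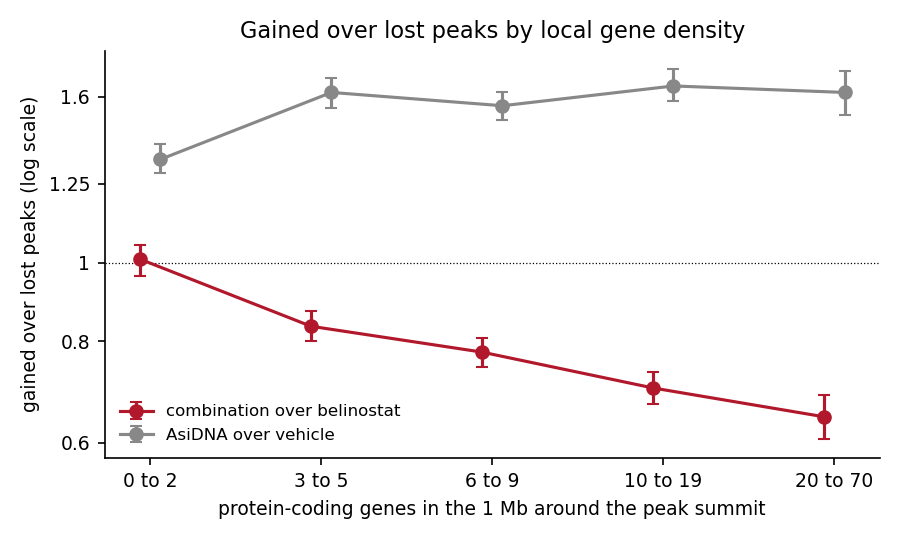
Ratio of gained over lost peaks (y axis, log scale) by the number of protein-coding genes in the 1 Mb around the summit (x axis), for the combination over belinostat (red) and AsiDNA over vehicle (grey); lines show 95% intervals of counting error. The red ratio falls from 1.01 to 0.646, while the grey one is 1.34 in the sparsest class and between 1.56 and 1.65 in the others.

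Among chromosomes the ratio of gained over lost was lowest on 19, the most gene-dense one, at 0.62 (interval 0.544 to 0.707), then on 17 at 0.649 (0.58 to 0.726), and highest on the gene-poor chromosome 18, at 0.976 (0.856 to 1.11). Chromosome 13, also gene-poor, had 0.846 (0.76 to 0.942), and neighbours in this order had overlapping intervals. Over the 23 chromosomes the ratio was unrelated to that of AsiDNA over vehicle (Pearson's r 0.0815, Spearman's rho 0.0425), and over 544 bins of 5 Mb as well (r of -0.0136, rho 0.0532). The points are regions of 1 set of libraries and not replicates. Regions with relatively many gains from AsiDNA on top of belinostat thus did not stand out for gains from AsiDNA alone.

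Genes with many changed peaks were genes with many peaks. Within the gene plus 10 kb, 33.5% of genes had a gained peak and 40.7% a lost peak. Across 18202 genes with a peak in either list, gained peaks per gene went with combination peaks per gene (r of 0.702), and lost with belinostat peaks (0.713). The genes with most gained peaks were PRKG1, the cGMP-dependent kinase (19), KAZN, a desmosome-associated protein (16), RAD51B (14), RARB and the cAMP phosphodiesterase PDE4D (13 each), then PTPRN2, CLSTN2, KALRN, RANBP2 and CAMTA1 (12 each). PRKG1 also led the lost peaks with 22, followed by PDE4D (17), ASIC2 (16), GSE1, RANBP2 and KAZN (14 each) and COL23A1, ZFHX3, SLIT3 and TENM2 (13 each). PRKG1, KAZN, PDE4D and RANBP2 stand in both series, with near-equal gains and losses. The RANBP2 counts cover the whole span listed for it, 1123 kb on chromosome 2 (108719482 to 109842301). Whether other genes share that span was not checked.

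Other genes gained far more than they lost. More gained than lost peaks were found at 18.7% of genes, and at 33 genes the surplus was 5 or more. CLSTN2, a synaptic adhesion protein on chromosome 3 (139935185 to 140577397), held 37 peaks in the combination and 27 with belinostat, 12 gained (32.4%, interval 19.6 to 48.5) and 2 lost (7.41%, 2.06 to 23.4). Its gained peaks lay between percentiles 1.2 and 49, and 6 of the 12 were in both lists without belinostat. RARB, a retinoic acid receptor (chromosome 3, 24829321 to 25597932), held 43 and 34 peaks, 13 gained (30.2%) and 4 lost (11.8%). Of its 13 gained peaks 6 were in both lists without belinostat and 7 in neither, and none of its 4 lost peaks was in either. RAD51B, which acts in homologous recombination (chromosome 14, 67819779 to 68683096), held 75 and 69 peaks, 14 gained (18.7%) and 7 lost (10.1%). TSNARE1, a SNARE-domain protein, had 8 gained and 0 lost of 15 and 7 peaks, and 7 of the 8 were in neither list without belinostat. RP1, a microtubule protein of photoreceptors, had 11 gained and 3 lost, and PRELID2 had 9 and 1. KALRN, an exchange factor of dendritic spines, had 12 and 5, NRXN3, a neurexin, 9 and 2, KCNMA1, the large-conductance potassium channel, 9 and 2, and ABI3BP, a matrix protein, 10 and 4. With a −log10 q of 5 or more required in both lists, the surplus was 13 in RARB, 7 in PRELID2, 6 in KALRN and 5 each in RAD51B, CLSTN2 and RP1. It shrank to 4 in NRXN3, 3 in TSNARE1, 2 in ABI3BP and 1 in KCNMA1. A shared peak also counts as changed under this filter when only its partner falls below it. With the filter on changed peaks alone and no peak at all in the other list, the surplus was 11 in RARB. It was between 2 and 6 in the others.

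In the other direction, 28.5% of genes lost more peaks than they gained, 87 of them by 5 or more. GSE1, a coiled-coil protein found with deacetylase complexes (chromosome 16, 85169512 to 85676200), held 41 peaks in the combination and 52 with belinostat, 3 gained (7.32%, interval 2.52 to 19.4) and 14 lost (26.9%, 16.8 to 40.3). Its lost peaks lay between percentiles 0.719 and 37.4, and 10 of the 14 were in neither list without belinostat. ASIC2, an acid-sensing ion channel, held 43 and 52 peaks, 6 gained and 16 lost. KCNJ6, an inwardly rectifying potassium channel, and LOC400499 had 1 gained and 10 lost peaks each, and PRKCA, protein kinase C alpha, 2 and 11. COL23A1, a transmembrane collagen, had 5 and 13, and 12 of its 13 lost peaks were in neither other list. CADPS2, which primes dense-core vesicles, and TSPAN18, a tetraspanin, had 2 and 10 each, ANK2, an ankyrin, 3 and 11, and ATP2B2, a calcium pump of the plasma membrane, 4 and 12. With a −log10 q of 5 or more in both lists, gained minus lost peaks were -9 in ANK2, -8 in PRKCA, -7 in CADPS2 and -6 in GSE1, but -4 in ASIC2, KCNJ6, TSPAN18 and ATP2B2, -3 in LOC400499 and -1 in COL23A1. When only the changed peak had to pass and the other list held no peak at all, the order differed. Gained minus lost peaks were then -7 in ANK2, -6 in PRKCA, -5 in ASIC2 and -4 in CADPS2, GSE1 and LOC400499. They were -3 in KCNJ6, TSPAN18 and ATP2B2 and -1 in COL23A1. With lists of equal length the difference went from -10 to -5 in ASIC2 and from -8 to -3 in COL23A1.

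Both sets of 10 genes leaned to gain when AsiDNA was given without belinostat. Of those with the largest surplus of gained peaks, 9 of 10 also gained more than they lost in AsiDNA over vehicle, with a median surplus of 3. Of those with the largest surplus of lost peaks, 7 of 10 gained more than they lost there, with a median of 3.5. Among all 191 genes with 10 or more changed peaks 132 did so, with a median of 2. PRELID2 (11 gained, 3 lost), RARB (13 and 3) and RAD51B (13 and 5) gained in both settings. CADPS2 had 18 gained and 11 lost with AsiDNA alone, PRKCA 7 and 2, ANK2 6 and 1 and LOC400499 5 and 0, the reverse of their balance on top of belinostat.

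**Figure D4:**
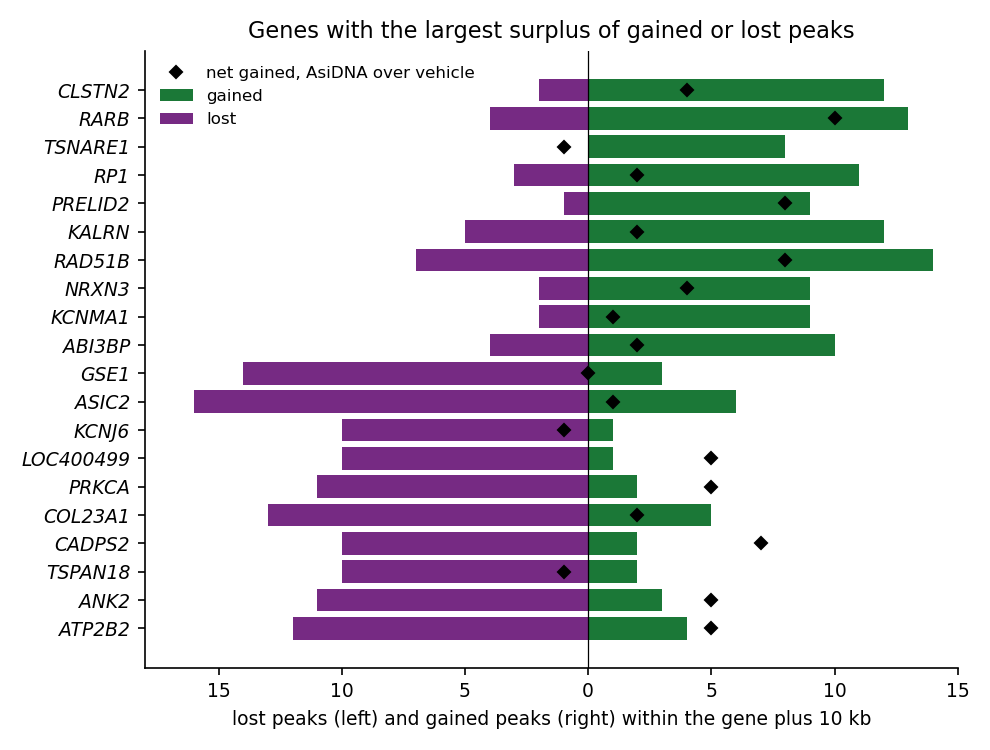
Gained peaks (green, right) and lost peaks (purple, left) within the gene plus 10 kb (x axis, number of peaks) for the 10 genes with the largest surplus of each kind (y axis); black diamonds show gained minus lost peaks of the same gene for AsiDNA over vehicle, with negative values to the left. CLSTN2 has 12 gained and 2 lost, GSE1 has 3 and 14, and the diamonds lie above 0 for 9 of 10 and 7 of 10 genes.

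Most open chromatin was common to both lists. Overlapping peaks formed 115198 pairs in which each peak met no further peak of the other list, 873 combination peaks spanned 2 or more belinostat peaks, and 966 belinostat peaks spanned 2 or more combination peaks. Within the simple pairs, the combination peak had a median width of 428 bp and the belinostat peak 442 bp, a median log2 ratio of -0.024 (interval -0.0254 to -0.0224, quartiles -0.194 and 0.125). Narrower combination peaks made up 54.6% of pairs and wider ones 44.7%. The percentiles of both members went together (r of 0.912 across pairs), summits lay a median of 21 bp apart, and the median rank difference was -0.575 points (quartiles -6.9 and 4.86). The slight narrowing was smallest at gene starts (log2 ratio -0.0172, interval -0.0197 to -0.0144), with -0.0263 in gene bodies (-0.0287 to -0.0238) and -0.0247 between genes (-0.0268 to -0.0223).

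**Figure D5:**
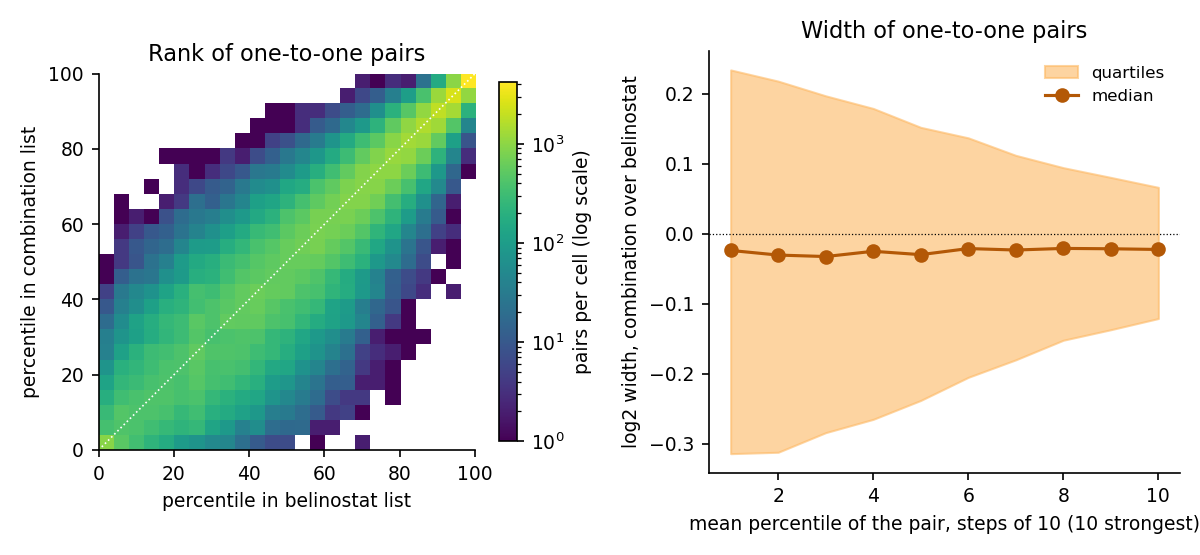
Left, number of shared peak pairs (colour, log scale) by percentile in the belinostat list (x axis) and in the combination list (y axis), with the diagonal dotted. Right, log2 width of the combination peak over the belinostat peak (y axis; line for the median, band for the quartiles) by the pair's mean percentile in 10 equal steps (x axis); the median lies between -0.0325 and -0.0209 in every step.

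A minority of pairs changed rank by a wide margin. The combination rank was higher by 20 points or more in 4003 pairs (3.47%) and lower by as much in 6399 (5.55%). The widest rise was 51.2 kb from HCCS, an enzyme that attaches haem to cytochrome c, on chromosome X (11059998 to 11060347), from a fold of 3.71 with belinostat (percentile 16.4) to 9.93 in the combination (76.3). Its folds with AsiDNA and vehicle were 10 and 11.1. Rises inside COLGALT2, a collagen galactosyltransferase (percentile 5.45 to 64.2), inside ADK, adenosine kinase (20.3 to 73.8), inside SLC35G2 (4.41 to 58.2) and inside F13A1, a clotting factor subunit (12.5 to 63.3), came next among those within genes. The F13A1 peak had percentiles of 95.6 and 96.1 with AsiDNA and vehicle. A peak at the start of SFTPB, a surfactant protein, rose from 9.33 to 61.9. Further rises lay outside genes, nearest to TTLL7 (5.45 to 63.3), MKI67 (20.3 to 77.5), KLF9 (15.1 to 69.3) and CDH2 (20.3 to 74.1). Of the 10 rises, 8 had a peak in both lists without belinostat, near the share in all pairs (81%).

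The widest falls were outside genes near TPTE, from percentile 68.1 with belinostat to 1.65 in the combination, and near SNRNP48, from 68.6 to 2.22. Inside genes, TMEM232 fell from 77.1 to 14.1, BLVRB, biliverdin reductase, from 69 to 10.5, ANK2 from 72 to 14.1 and TRPV3, a warmth-sensing channel, from 67.7 to 10.5. The remainder lay nearest to STIM2, TBL1XR1, LOC124903391 and COL11A1. Of the 10 falls, 4 had a peak in both lists without belinostat. Among all pairs with a change of 20 points or more, the share with both was 76.3% of rises and 60.2% of falls. Across pairs with a peak in both lists without belinostat, the AsiDNA rank exceeded the vehicle rank by a median of 3.04 points (interval 2.37 to 3.6) where the combination rank had risen by 20 or more, by 1.04 (0.375 to 1.55) where it had fallen, and by 0.889 (0.823 to 0.955) in all pairs.

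Among strong pairs, at or above percentile 50 in both lists, 163 combination peaks were 2 or more times as wide as their partner and 224 were as much narrower. The most widened pair lay at the start of ATOH1, a neural transcription factor (357 bp with belinostat, 1181 bp in the combination). Next came a pair far from genes on chromosome 1 (353 and 1156 bp). SAMD9L, an interferon-responsive growth inhibitor, followed at its start (259 and 818 bp), then MAML2, a Notch coactivator, inside the gene (398 and 1250 bp). The last lay far from genes on chromosome 6 (224 and 662 bp). Both places far from genes, from 123664301 on chromosome 1 and 59484374 on chromosome 6, fall in 5 Mb bins at or next to centromeres. Read mapping there was not checked. The most narrowed lay inside LRRN2 (661 and 205 bp), CDH13, a cadherin (704 and 219 bp), PLXNA4, a semaphorin receptor (841 and 276 bp), SLC16A10, an amino acid transporter (1309 and 434 bp), and ANXA6, an annexin (1568 and 536 bp).

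Start peaks of DNA repair and checkpoint genes were nearly all in both lists. Of 102 genes on 5 lists (end joining, homologous recombination, the Fanconi pathway, single-strand break repair and the damage checkpoint), 100 had a start peak in both lists and 0 had a gained or lost start. A count of 0 among 102 allows a share of up to 2.94%, which covers the 1.28% and 1.95% of all genes. PRKDC, the catalytic subunit of DNA-dependent protein kinase, had a peak near a gene end of fold 10.2 in the combination (percentile 78) and 10.3 with belinostat (79.9). XRCC6, the Ku70 subunit that holds broken ends, had a start peak of 17.7 (97.9) and 16.6 (97.1). PARP1, which marks breaks with ADP-ribose chains, had 8.55 (68.3) and 7.75 (64.8). Around these genes peaks still came and went. Of all genes, 18.7% held more gained than lost peaks and 28.5% the reverse. Of the 27 homologous recombination genes 10 had more gained than lost peaks (37%) and 3 the reverse (11.1%). RAD51B led the former with 14 against 7, followed by BLM, a helicase, with 2 and 0. WRN, another helicase, had 0 and 3. Near all homologous recombination genes, 29 of 205 combination peaks were gained (14.1%, interval 10 to 19.6). Of 192 belinostat peaks there 17 were lost (8.85%, 5.6 to 13.7). The shares near all genes were 10.9% and 13.7%. End joining genes split 4 to 2 (25% and 12.5% of the list), with PRKDC at 3 gained and 1 lost and NHEJ1, a ligase cofactor, at 0 and 3. Checkpoint genes split 7 to 5 (31.8% and 22.7%), with ATR, the kinase of replication stress, at 2 and 0, Fanconi genes 2 to 4 (11.8% and 23.5%), and single-strand break repair genes 5 to 8 (25% and 40%).

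The p53 targets had start peaks at all 24 genes in both lists. Of these genes 10 held more gained than lost peaks (41.7%, against 18.7% of all genes) and 4 the reverse (16.7%, against 28.5%). Counted by peaks, 16 of 120 combination peaks near them were gained (13.3%, interval 8.38 to 20.6). Of 116 belinostat peaks 11 were lost (9.48%, 5.38 to 16.2). Both intervals cover the shares near all genes, 10.9% and 13.7%. SESN2 and PMAIP1, a stress sensor and a BH3-only death protein, each had 2 gained and 0 lost, BAX, CDKN1A and FAS had 1 and 0, and SESN1 had 1 gained and 4 lost. In AsiDNA over vehicle 9 of the 24 had a surplus of gained peaks (37.5%, against 33.3% of all genes) and 2 of lost peaks (8.33%, against 15.7%).

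Of the 18 pathway lists, glioma receptor tyrosine kinases had the largest share of genes with a surplus of lost peaks. Of its 24 genes 14 had more lost than gained peaks (58.3%, against 28.5% of all genes) and 4 the reverse, with a median surplus of -1 against 0 over all genes. Its belinostat peaks were lost in 45 of 285 cases (15.8%, interval 12 to 20.5) and its combination peaks gained in 20 of 258 (7.75%, 5.07 to 11.7), beside 13.7% and 10.9% for peaks near all genes. ALK had 10 lost and 3 gained peaks, EGFR 7 and 1, and ROS1 5 and 1, so these 3 genes held 22 of the 45 lost peaks. EGFR, the receptor most often amplified in glioblastoma, held 33 peaks with belinostat and 27 in the combination. Its lost peaks lay between percentiles 1.72 and 46.6, and 4 of the 7 were in neither list without belinostat. Its strongest was at 55198554 to 55198790 on chromosome 7, inside the gene, with a fold of 5.79. The EGFR start peak stayed, with folds of 8.59 (percentile 68.5) and 8.3 (68.6). In AsiDNA over vehicle 10 genes of this list gained more than they lost (41.7%, against 33.3% of all genes) and 7 the reverse (29.2%, against 15.7%).

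Deacetylase genes, the targets of belinostat among them, mostly gained or lost single peaks. Among 18 histone deacetylases and sirtuins 9 had more lost than gained peaks (50%, against 28.5% of all genes) and 2 the reverse, with all 18 starts open in both lists. Each of the 9 had a surplus of 1 lost peak. Counted by peaks, 19 of the 148 belinostat peaks near these genes were lost (12.8%, interval 8.37 to 19.2) and 14 of the 143 combination peaks gained (9.79%, 5.92 to 15.8), both close to the 13.7% and 10.9% near all genes. HDAC9, a class IIa enzyme, had 9 gained and 6 lost and HDAC4 2 and 1. HDAC1, HDAC3, HDAC5, HDAC10, SIRT1, SIRT3, SIRT4 and SIRT6 had 0 gained and 1 lost each, and HDAC8 1 and 2. The HDAC2 start peak had a fold of 6.39 in the combination (percentile 50.5) and 7.92 with belinostat (66.2). Corepressor genes split 8 to 7 (32% and 28%), and acetyltransferases and acetyl-lysine readers 5 to 3 (23.8% and 14.3%).

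The 18 lists held 3 gained and 6 lost starts among 394 genes, which is 0.761% and 1.52% beside 1.28% and 1.95% of all genes. In the BCL2 family, BCL2L10 gained a peak near a gene end of fold 4.74 (percentile 30.5), and HRK, a BH3-only protein, gained a start peak of 3.86 (16.4). BIK, also BH3-only, lost one of 3.85 (18.6) near a gene end. CCND2, a G1 cyclin, gained one of 3.03 (5), also near a gene end. Among interferon-induced genes, IFI44 lost its start peak, described above, and IFITM1, an antiviral membrane protein, lost one of 2.85 (3.52). Of the 25 interferon-induced genes with a start peak under belinostat, 23 kept theirs. TLR9, the sensor of unmethylated CpG DNA in endosomes, lost a start peak of 3.48 (12.5), and FGFR4 one of 3.94 (19.5). TNFRSF10A, a receptor for TRAIL, lost a peak of 2.65 (1.71) near a gene end. With IFI44 excepted, these peaks were all in the lower part of their list. Among markers of other cell types, RBFOX3 of neurons lost a start peak of 4.08 (22.4) and CD14 of monocytes one of 2.31 (0.358). Surplus counts of the remaining lists stand beside 18.7% of all genes with more gained and 28.5% with more lost peaks. Mesenchymal regulators split 6 to 8 (25% and 33.3%), with YAP1, a Hippo pathway coactivator, at 4 gained and 1 lost and ZEB2, a driver of mesenchymal change, at 3 and 5. Long synaptic genes split 7 to 11 (28% and 44%), with NRXN3 at 9 and 2 and NLGN1, a neuroligin, at 8 and 3. PTPRD, a receptor phosphatase, had 4 and 9, and MAGI2, a synaptic scaffold, 4 and 8. Counted by peaks, neither list leaned to loss. Near mesenchymal regulators 34 peaks were gained (11.3%) and 35 lost (11.6%), and near synaptic genes 62 (15.9%) and 63 (16.3%). The shares near all genes were 10.9% and 13.7%. AP-1 and early response genes split 7 to 5 (30.4% and 21.7%), cell cycle genes 4 to 3 (16.7% and 12.5%) and the BCL2 family 7 to 6 (41.2% and 35.3%). Death receptors and caspases split 3 to 7 (13.6% and 31.8%), nucleic acid sensors 4 to 3 (22.2% and 16.7%) and interferon-induced genes 6 to 8 (22.2% and 29.6%).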

How the data were processed

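NicE-seq peak lists of 16 U87 libraries were used, 1 list per group of 4. Per the submitters' processing notes, MACS2, Bowtie2, Trim Galore 0.5.0, Picard, SAMtools and deepTools were run on hg38. The sources used here do not say how the authors combined the libraries of a group or whether a control or blacklist was used. For every peak the authors deposited a fold ratio over the surrounding signal and, on the −log10 scale, its p-value and q-value. They served only to rank and filter peaks within a list.

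Members and gene lists were chosen with earlier results of these data known. Peaks on chromosomes 1 to 22 and X were compared by overlap of at least 1 bp. Gene positions came from RefSeq on GRCh38.p14. Of its protein-coding genes, 153 carry scaffold positions and were left out, leaving 19821. Starts came from the RefSeq promoter table for 15812 genes, and either gene end was used for the other 4009. No genome sequence was used beyond that table. Promoters of chromosome 8 were not used here. Positions are 1-based.

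Named were the 10 genes with most gained, most lost and the largest surplus of either, the 10 highest-ranked gained and lost peaks and starts, the 10 widest rank changes and 5 widest width changes each way, and members of 18 pathway lists with changed starts or most changed peaks. Intervals of medians come from order statistics, and ratios of counts carry the interval of the share. Depth per library is unknown. Thresholds, list lengths, overlap rules, windows and flanks were varied. Overlap calls were tested on 229257 simulated peaks of known class, of which 100.0% came out right. These were copies of combination peaks with close neighbours left out and shifts smaller than a peak. They check the overlap code only. Python 3.11.15, numpy 2.4.6, pandas 2.3.3, scipy 1.17.1 and matplotlib 3.10.9 were used.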

Additional observations from a re-analysis of the deposited data

Results flagged for a closer look

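The balance of gained and lost peaks between lists with and without AsiDNA had opposite signs with and without belinostat. On top of belinostat, gained minus lost peaks came to -4161. Over vehicle they came to 8524. The difference between these values was not tested, since each group has 1 list. By the way peaks are counted, each value lies near the difference in list length, -4072 and 7955 peaks.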

How the results depend on the processing

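No paired analysis was possible because each group has 1 peak list, and for the same reason no replicate could be left out. Requiring a −log10 q of 5 for a changed peak and no peak at all in the other list left 9471 gained and 10883 lost peaks (ratio 0.87), 141 gained and 173 lost starts, and 5208 genes with a lost peak. The ratio over all peaks was 0.884 at a −log10 q of 5 in both lists, 0.992 with lists of equal length, 0.834 with summits within 250 bp, and 0.784 with no other peak within 1000 bp. With lists of equal length the ratio was 1 at gene starts, 1.02 between genes and 0.962 in gene bodies. A gene flank of 50 kb gave 11942 genes with a gained and 13966 with a lost peak. The sparse-over-dense ratio was 1.44 at a −log10 q of 5, and between 1.47 and 1.63 otherwise. The share of gained peaks in both lists without belinostat was 33.7% at a −log10 q of 5 and 38.8% with the margin. That of lost peaks was 21.3% and 26.3%, and 22.4% with equal lengths. The median log2 width ratio was -0.0213 in pairs at or above percentile 50 and -0.0263 over all overlaps. The median rank difference was -0.313 and -0.631 there, and -0.662 when ranked by p-value. For the 20 genes with the largest surplus, the surplus stayed within 1.5 times in 129 of 160 recounts, and its sign turned in none. These genes were picked for the largest surplus in the same lists, and the recounts reuse the same peaks. The unturned signs are therefore no independent support. Of the top peaks all 20 kept their class under every setting except 2 gained ones, which had another peak within 1000 bp. Being the strongest changed peaks, they could not fail the −log10 q settings or the equal-length cut. The causes were not tested. Left-out crowded bins, gene tables with scaffold positions, stricter starts, and the density and other-list settings were chosen after seeing the data. Without the 10 bins of 5 Mb with most changed peaks, the ratio over all peaks was 0.787. Weak peaks near the threshold, which make up most changes, are limited by the unknown depth.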

Other observations

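Of the 10 bins of 5 Mb with most changed peaks, 6 lie at or next to centromeres, and their peaks changed in both directions at once. On chromosome 9 from 40 to 45 Mb, 188 of 380 combination peaks were gained (49.5%) and 117 of 315 belinostat peaks were lost (37.1%). On chromosome 20 from 25 to 30 Mb the shares were 49.4% and 35.6%, on chromosome 13 from 15 to 20 Mb 37.4% and 33.8%, on chromosome 6 from 55 to 60 Mb 28.3% and 24.8%, and on chromosome 10 from 40 to 45 Mb 25.6% and 19.6%. Chromosome 1 from 120 to 125 Mb held many changed peaks, 137 gained and 121 lost, at shares of 12.4% and 11%, near those of the whole lists. In each of these 6 bins gained peaks outnumbered lost ones. In the other 4 of the 10 bins with most changed peaks, lost peaks outnumbered gained ones, as in the lists as a whole. They held 69 gained and 85 lost peaks on chromosome 20 from 45 to 50 Mb, 54 and 86 on chromosome 7 from 130 to 135 Mb, 59 and 81 from 135 to 140 Mb, and 57 and 82 on chromosome 1 from 20 to 25 Mb.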
